A study of Mus musculus with 12 samples.

Results

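The regions described here are the ZBTB43 affinity peaks that lie just upstream of mouse protein-coding transcript starts. A peak was taken when the midpoint of its interval fell in the 1000 bp before the start of a protein-coding transcript on an autosome. In the peak list from unmethylated DNA, 128 of 14554 autosomal peaks met this rule. In the list from fully CpG-methylated DNA, 1975 of 169284 did.

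ZBTB43 is a zinc finger protein with a BTB domain, and in affinity sequencing a purified protein is mixed with naked genomic fragments and the captured DNA is sequenced. The protein was full-length ZBTB43 fused to maltose-binding protein (MBP), and MBP alone was the control. The unmethylated DNA came from male TKO ES cells, clone 19, which are Dnmt1-/-, Dnmt3a-/- and Dnmt3b-/- and so lack the enzymes that methylate CpG sites. The methylated DNA was lung DNA of wild-type C57BL/6N males aged 2 months, treated with the bacterial CpG methyltransferase M.SssI after shearing. Each of the 4 conditions had 2 libraries, which were combined before peak calling, so each list is 1 set of peaks without a replicate. The lists are called TKO and SssI after their DNA, and the TKO cells are 1 clone of a cultured line. Cell source, strain and methylation all differ between the lists and cannot be told apart. The DNA carried no chromatin, so promoter activity is not measured here.

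A sequence in which purines and pyrimidines alternate, such as a run of CA or CG, can leave the right-handed B form and take up left-handed Z-DNA. The study refers to such sequences as purine-pyrimidine repeats, or PPRs. Here a tract is an unbroken alternation of at least 12 bp that is not made of A and T alone. Mammalian promoters fall into CpG-rich ones, the CpG islands, which are mostly unmethylated and serve broadly used and developmental genes, and CpG-poor ones, which are common at tissue-restricted genes. Promoters were split by observed over expected CpG in the 1000 bp before the start into low (under 0.4), intermediate and high (at least 0.6) classes.

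The sequences below show what the peaks cover. They were read from the mouse genome (GRCm38, the mm10 build) and are printed 5′ to 3′ on the coding strand of the gene, with every tract of at least 12 bp in capitals and a margin of 40 bp on either side of the longest one. The first 3 come from peaks of both lists: Sp6 for its score, and Stc2 and Lemd1 for their CpG number. The last 4 come from peaks of the SssI list that no TKO peak overlapped: Filip1 for its score, Mxi1 for its CpGs, and Tet1 and Prdm14 for their roles in DNA demethylation and germ cells.
Sp6, chr11:97012604-97012727, plus strand: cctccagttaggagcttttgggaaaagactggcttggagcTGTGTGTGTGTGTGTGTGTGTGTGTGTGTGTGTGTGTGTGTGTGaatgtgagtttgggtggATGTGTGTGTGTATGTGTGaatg
Stc2, chr11:31370262-31370432, minus strand: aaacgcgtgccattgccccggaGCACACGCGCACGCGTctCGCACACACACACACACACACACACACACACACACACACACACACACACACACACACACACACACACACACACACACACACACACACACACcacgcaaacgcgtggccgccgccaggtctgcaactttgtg
Lemd1, chr1:132190673-132190779, plus strand: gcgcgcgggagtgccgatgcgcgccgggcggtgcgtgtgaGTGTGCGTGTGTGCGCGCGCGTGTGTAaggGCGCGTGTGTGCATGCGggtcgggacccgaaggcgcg
Filip1, chr9:79962476-79962609, minus strand: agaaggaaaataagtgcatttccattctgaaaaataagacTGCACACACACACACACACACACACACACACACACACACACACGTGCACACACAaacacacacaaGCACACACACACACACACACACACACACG
Mxi1, chr19:53330014-53330138, plus strand: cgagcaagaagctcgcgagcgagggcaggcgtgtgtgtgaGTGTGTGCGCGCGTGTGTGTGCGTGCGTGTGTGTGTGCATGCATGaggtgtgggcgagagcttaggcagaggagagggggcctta
Tet1, chr10:62815176-62815294, minus strand: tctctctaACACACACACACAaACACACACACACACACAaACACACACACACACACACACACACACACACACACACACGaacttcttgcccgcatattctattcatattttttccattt
Prdm14, chr1:13127795-13127937, minus strand: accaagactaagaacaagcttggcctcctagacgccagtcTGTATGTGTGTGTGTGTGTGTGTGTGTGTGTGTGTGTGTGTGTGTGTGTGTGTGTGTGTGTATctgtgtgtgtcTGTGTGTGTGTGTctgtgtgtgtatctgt
The Sp6 and Prdm14 stretches are built on TG, which is CA on the opposite strand, and the Sp6 stretch shown holds no CpG. The Stc2 stretch holds 13 CpGs, of which 1 lies inside its CA tract of 91 bp, whereas in the Lemd1 stretch 5 of 21 CpGs lie inside the longest tract.

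Both lists held fewer peaks upstream of starts than the share of sequence in these windows. The upstream windows of 52101 distinct starts, belonging to 20757 genes, cover 1.39% of the autosomal sequence. Upstream peaks made up 0.879% of the TKO list (95% Wilson interval 0.740% to 1.04%) and 1.17% of the SssI list (1.12% to 1.22%). Per Mb this was 3.84 TKO peaks in the windows against 6.11 elsewhere, a density 1.59 times higher outside, and 59.2 SssI peaks against 70.8, or 1.20 times higher outside. All intervals here are 95% intervals that cover counting error over peaks or starts. Peaks are not replicates of an experiment, and neighbouring transcripts share windows.

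The deficit was concentrated next to the start. For the densities by bin, distances were taken from the start nearest to each peak, in either direction, so a few peaks upstream of one start fall nearer to another. In the TKO list the density was 5.83 per Mb at 800 to 1000 bp upstream (3.99 to 8.23), 5.01 in the middle 200 bp of the window (3.36 to 7.20) and 1.54 in the last 200 bp (0.767 to 2.75). In the SssI list the values in the same bins were 75.4 (68.3 to 83.0), 71.5 (64.8 to 78.8) and 34.8 (30.6 to 39.4). The last 200 bp were thus below the outermost bin in both lists, with intervals that did not overlap. All other distances were taken from the nearest start that the peak lies upstream of. By this measure the median peak midpoint lay 651 bp from the start in the TKO list (quartiles 442 and 824 bp). In the SssI list it lay at 545 bp (324 and 774 bp).

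**Figure D1:**
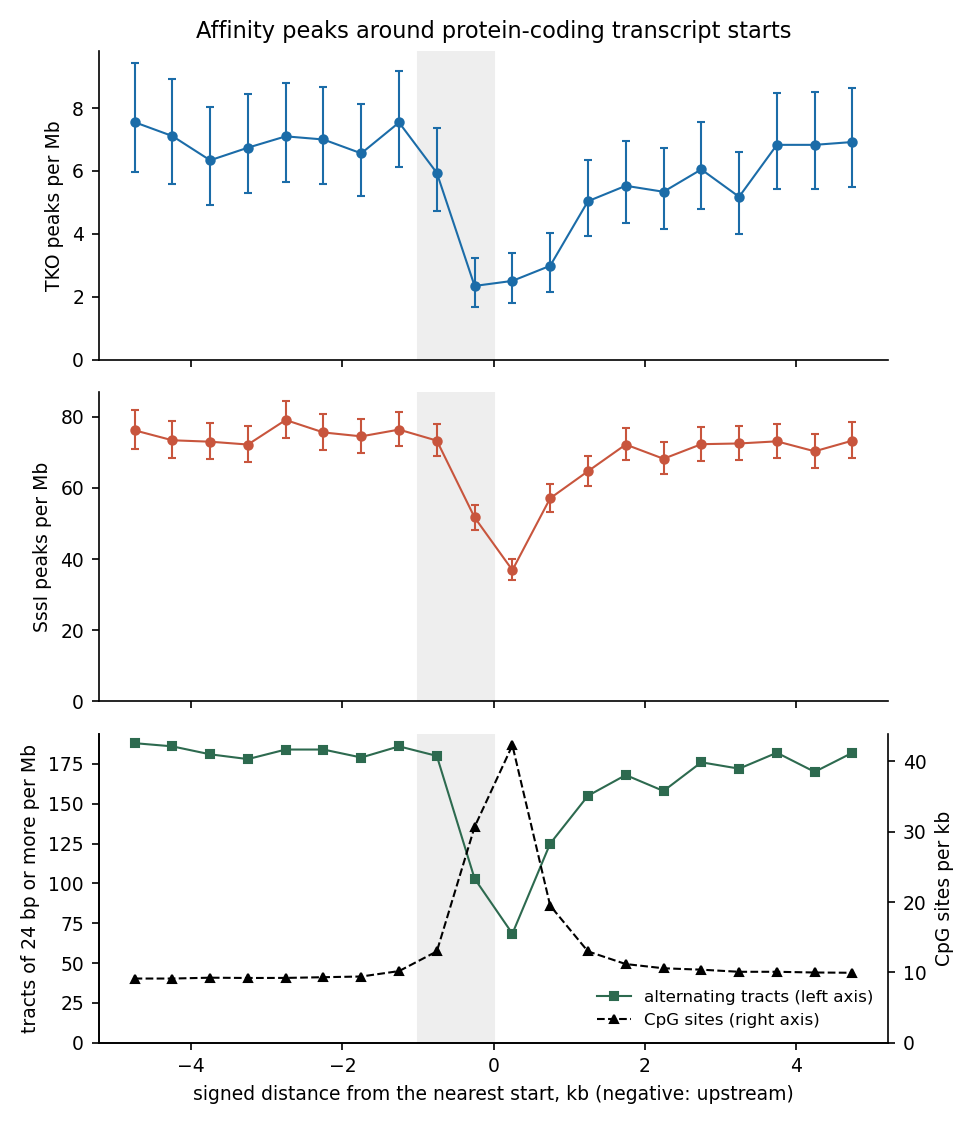
Peaks per Mb of the TKO list (top) and the SssI list (middle), and tracts of at least 24 bp per Mb with CpG sites per kb (bottom), in 500-bp bins of signed distance from the nearest protein-coding start; the grey band is the 1000 bp upstream and bars are 95% Poisson intervals. Peak density is lowest within 500 bp of the start on either side, at 2.35 and 2.51 per Mb in the TKO list and 51.7 and 36.9 in the SssI list, where tracts are also scarce and CpG sites dense.

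Tract density moved with peak density. Tracts of at least 24 bp numbered 187 per Mb at 800 to 1000 bp upstream and 64.8 per Mb in the last 200 bp, while CpG sites rose from 11.5 to 43.2 per kb. Of the tracts present, 48.4% (45.4% to 51.5%) lay under an SssI peak in the outermost bin and 55.2% (50.6% to 59.6%) in the last 200 bp. For TKO peaks the shares were 4.76% (3.62% to 6.24%) and 4.31% (2.81% to 6.56%). A long tract in the last 200 bp was therefore under an SssI peak no less often than one in the outermost bin. In wider bins the TKO share was lower near the start, at 3.62% (2.82% to 4.63%) in the last 500 bp and 5.79% (4.94% to 6.77%) at 500 to 1000 bp, while the SssI share was 53.1% (50.7% to 55.5%) and 47.7% (45.7% to 49.6%). Farther upstream, out to 5 kb, the TKO share per 500-bp bin ran from 6.08% to 8.84%. Downstream of the start the same dip was seen. At 1.5 to 2 kb into the transcript the SssI density was 72.2 per Mb, against 70.8 outside the upstream windows. The TKO density there was 5.53 (4.35 to 6.94) against 6.11, and it was 6.83 (5.43 to 8.48) at 3500 to 4000 bp.

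Starts with CpG-poor promoters carried peaks more often. In the TKO list 122 of 27558 starts of the low class had an upstream peak, which is 0.443% (0.371% to 0.528%). Of the 13643 starts of the high class 28 had one, or 0.205% (0.142% to 0.296%). The SssI shares were 7.09% (6.80% to 7.40%) for the low, 5.17% (4.77% to 5.61%) for the intermediate and 2.57% (2.31% to 2.84%) for the high class. The order low, intermediate, high held in both lists, although in the TKO list the intermediate class (0.284%, 0.200% to 0.403%) had an interval that overlapped those of both the low and the high class. With only the outermost start of each gene counted, the TKO difference between the low and high classes was 0.179 points (-0.0366 to 0.349), which includes 0. Starts with a TKO peak had a median of 14 CpGs in their 1000 bp and those without had 22, at a near-equal GC content of 49.4% and 49.3%.

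Tracts were also commoner in CpG-poor promoters. A tract of at least 24 bp was present upstream of 13.6% of low-class, 9.46% of intermediate and 5.50% of high-class starts. Among starts with such a tract the TKO share no longer fell with CpG content, at 2.88% (2.39% to 3.47%), 2.91% and 3.73% (2.59% to 5.34%). The SssI share was 48.2% (46.6% to 49.8%), 50.3% (47.3% to 53.4%) and 39.9% (36.5% to 43.5%), so that the high class stayed below the other two. Counted per tract rather than per start, the SssI shares were 50.1% (48.4% to 51.8%), 52.3% (48.4% to 56.2%) and 46.3% (41.6% to 51.2%), and the intervals of the low and high classes overlapped.

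**Figure D2:**
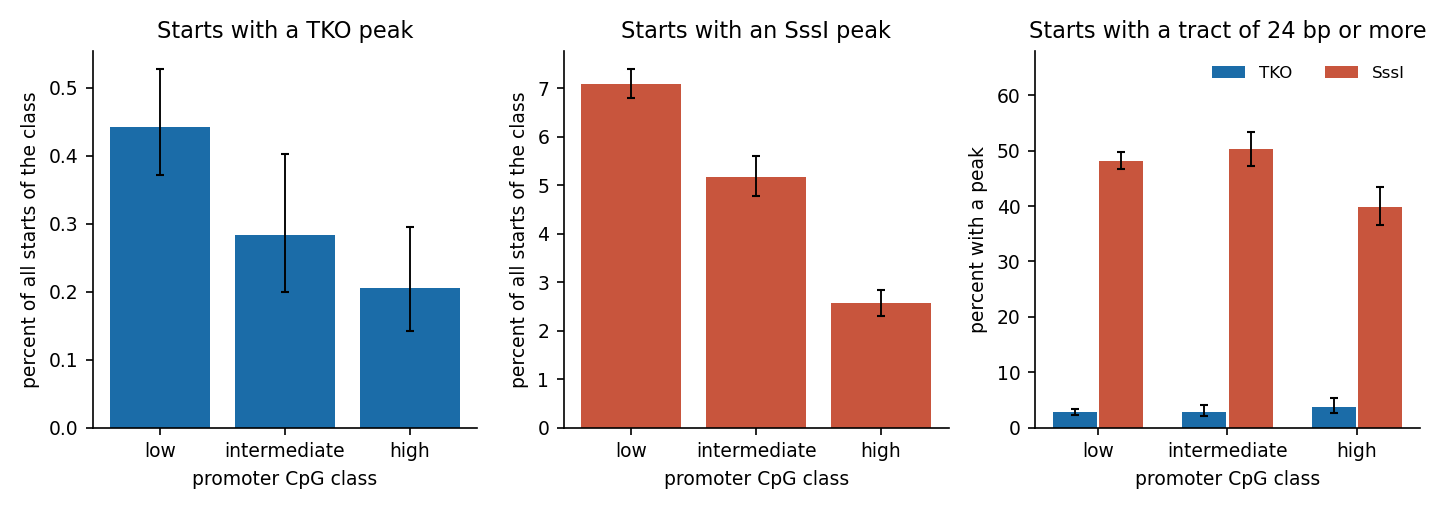
Percent of protein-coding starts with an upstream peak by promoter CpG class for the TKO list (left) and the SssI list (middle), and percent among starts that hold a tract of at least 24 bp (right); bars carry 95% Wilson intervals and the vertical scales differ. The share falls from low to high CpG over all starts, from 7.09% to 2.57% for SssI, while among starts with a tract it runs from 48.2% to 39.9% for SssI and from 2.88% to 3.73% for TKO.

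Nearly every upstream peak held a tract, as did peaks elsewhere. In the TKO list 125 of 128 upstream peaks (97.7%) and 96.5% of all others did, a difference of 1.21 percentage points (Newcombe interval -3.12 to 2.78). In the SssI list 1951 of 1975 (98.8%) and 98.6% did, a difference of 0.139 points (-0.450 to 0.540). The longest tract had a median of 49 bp in upstream TKO peaks against 47 bp in the others, and of 46 bp in both groups of SssI peaks. A CA run of at least 12 bp, on either strand, was found in 89.1% of upstream TKO peaks against 87.8% of the others and in 93.8% against 93.9% of SssI peaks. These runs are part of the tracts just counted, not a separate motif. By strand of the gene, the longest tract of SssI peaks was richer in TG in 52.7% (50.5% to 54.9%) and in CA in 47.1% (44.9% to 49.3%), and in TKO peaks CA led in 52.0% (43.3% to 60.6%).

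Upstream SssI peaks held a CpG more often than the rest, 79.0% against 68.3% (10.7 points, 8.85 to 12.5), and for TKO peaks the shares were 76.6% and 75.2% (1.41 points, -6.67 to 7.94). Peaks with many CpGs were more frequent upstream in both lists. At least 6 CpGs were present in 31.2% of upstream TKO peaks and 18.4% of the others (difference 12.9 points, 5.45 to 21.4), and in 19.6% against 8.39% of SssI peaks (11.3 points, 9.56 to 13.1). The surplus was found outside the longest tract in both lists, and in the SssI list also inside it. CpGs outside the longest tract can lie in further tracts of the same peak, and these were not counted apart from the flanking sequence. Outside the longest tract, 6 or more CpGs were counted in 20.3% against 7.04% of TKO peaks (13.3 points, 7.20 to 21.1) and in 12% against 3.02% of SssI peaks (8.98 points, 7.62 to 10.5). Inside the longest tract, 3 or more CpGs were found in 22.7% against 16.9% of TKO peaks (5.76 points, -0.660 to 13.8) and in 11.6% against 8.43% of SssI peaks (3.21 points, 1.87 to 4.71). A run of CG of at least 12 bp, the simplest methylatable alternating repeat, occurred in 62 upstream SssI peaks, 3.14% against 1.32% (1.82 points, 1.14 to 2.69). In the TKO list it occurred in 2 upstream peaks, 1.56% against 1.39% (0.169 points, -0.982 to 4.13).

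The share of tracts that lay under a peak depended on their length in the SssI list. A tract was under a peak when they had 1 bp or more in common, also where the peak held a longer tract. In the SssI list 91.1% of upstream peaks and 91.3% of the others held a tract of at least 24 bp. A short tract under a peak may thus lie beside a longer one, and how this bears on the shares of short tracts was not tested. Of tracts of 12 to 23 bp, 13.2% were under an SssI peak upstream of starts and 18.9% elsewhere (-5.72 points, -6.28 to -5.13). At 36 to 59 bp the order was the opposite, 61.1% against 57.1% (4.03 points, 1.93 to 6.09). This was seen in tracts of that length without a CpG, 61.0% against 55.6% (5.38 points, 2.86 to 7.84). Those with a CpG had 61.3% against 61.5% (-0.196 points, -4.02 to 3.50). At 60 bp or more the shares were 59.5% and 56.8% (2.70 points, -1.64 to 6.89). In the TKO list every length class was lower upstream, from 2.49% against 4.20% at 12 to 23 bp (-1.71 points, -1.96 to -1.43) to 8.81% against 10.9% at 60 bp or more (-2.11 points, -4.29 to 0.676). A CpG in a tract of 60 bp or more went with a higher share both upstream and elsewhere: 83.0% with and 42.8% without under an SssI peak upstream, and 14.6% with and 4.68% without under a TKO peak. Tracts of 12 to 23 bp showed the reverse in both places. Upstream, 8.09% with and 15.9% without a CpG were under an SssI peak, and 1.19% and 3.17% under a TKO peak. Elsewhere the shares were 14.7% and 19.7% for SssI, and 2.82% and 4.46% for TKO. Over all lengths the upstream shares were again lower with a CpG (18.4% and 24.1%, and 2.51% and 3.37%). Elsewhere they were higher with one (29.8% and 26.3%, and 5.01% and 4.83%).

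**Figure D3:**
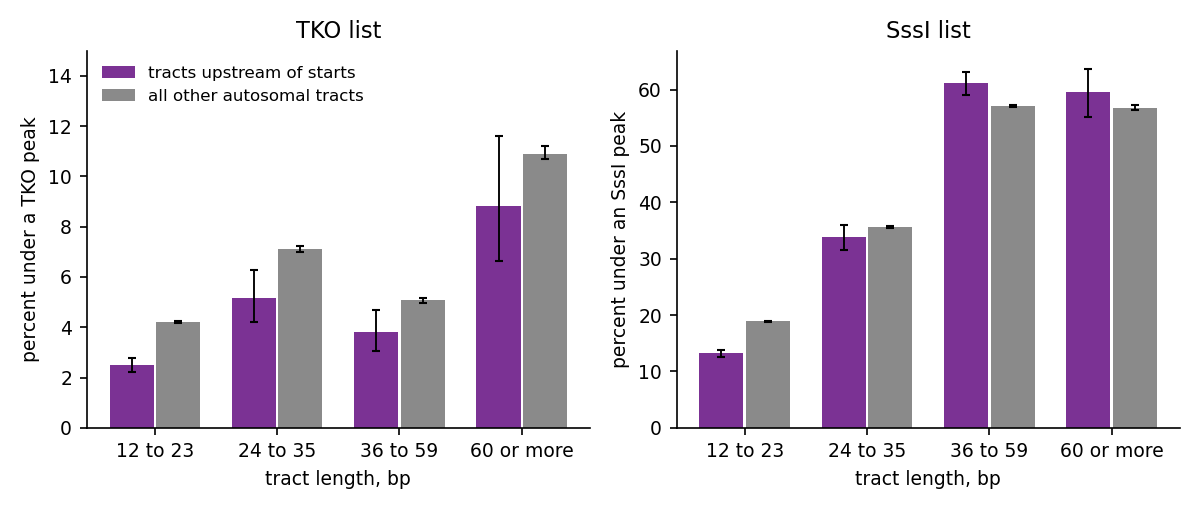
Percent of alternating tracts that lie under a TKO peak (left) or an SssI peak (right) by tract length, for tracts in the 1000 bp upstream of starts and for all other autosomal tracts; bars carry 95% Wilson intervals and the vertical scales differ. Upstream tracts are below the rest in all 4 TKO length classes, and in the SssI list only the 36 to 59 bp class stands above the rest beyond its interval, at 61.1% against 57.1%.

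A peak's score in these lists is 10 times the negative log10 of its q-value, cut to a whole number, and it grows with depth as well as with enrichment, so scores are compared within a list. The median score of upstream TKO peaks was 174 and that of the others 193, and 44.5% against 50.0% were above the list median (-5.43 points, -13.8 to 3.25). Only 4 upstream TKO peaks, 3.12%, stood in the top 10% of their list, against 10.1% of the others (-6.95 points, -8.92 to -2.29). The SssI medians were 102 and 108, and 8.35% against 10.0% were in the top 10% (-1.67 points, -2.82 to -0.361). The strongest peaks were thus less frequent upstream of starts in both lists.

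The highest TKO score upstream of a start belonged to Sp6, a transcription factor of the Sp/KLF family, at 2174 in chr11:97012615-97013212, with its midpoint 480 bp before the start. This peak ranked 499 in the list, and the SssI peak over it scored 1952. Myrip, which links Rab27 to myosin motors, followed at 1700 (chr9:120300565-120301008, 726 bp), although its longest tract was only 21 bp. Fcer2a, the low-affinity IgE receptor of B cells, scored 1585 at 355 bp, with a longest tract of 22 bp. Celf4, an RNA-binding protein of neurons, scored 1403 at 50 bp, within its own annotated UTR, and is the only one of these 4 in a high-CpG promoter.

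The next 4 were M1ap, Tshz2, Arhgef15 and Prcd. M1ap, a protein of male meiosis, had a score of 1349 at 618 bp and 17 CpGs in its peak (chr6:83025463-83025977), which lay in an intron before an internal start. Tshz2, a zinc finger transcription factor, scored 1258 at 169 bp and in the SssI list 1898. Arhgef15, a guanine nucleotide exchange factor, scored 1167 at 921 bp, and Prcd, a photoreceptor disc protein, scored 1141 at 820 bp with a tract of 88 bp that holds 6 CpGs. Of these 8 peaks 7 belonged to the low promoter class, as did 74.2% of all 128.

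Of the 4 TKO peaks nearest to a start, 2 scored below the list median and 2 above it. Rnf150, a membrane RING finger protein, had its midpoint 10 bp from the start and scored 126, and the cadherin Cdh7 at 57 bp scored 40. Mdga2, a synaptic adhesion protein, scored 483 at 76 bp in a high-CpG promoter. Celf4, at 50 bp, was described above. The SssI peaks over Rnf150, Cdh7 and Mdga2 scored 1321, 858 and 1262.

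The longest tracts under upstream TKO peaks were those of Wdhd1, Paip1, Timp2 and Grin2b. Wdhd1, a replication fork protein, had an alternation of 792 bp within a peak of 904 bp in an intron (chr14:47256397-47257300) and a TKO score of 855. Paip1, a partner of poly(A)-binding protein, had 391 bp and 489. Timp2, an inhibitor of matrix metalloproteinases, had 259 bp and 778. Grin2b, a subunit of the NMDA receptor, had 185 bp and only 212, with 1 CpG in the whole peak, while the SssI peak over it scored 1614. Tract length alone therefore did not order the scores of these peaks.

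The upstream TKO peaks richest in CpG were those of Lemd1 (30 CpGs, score 438), Atpaf2 (27, score 576), Stc2 (27, score 165) and Relt (22, score 409). L3mbtl3, a chromatin-binding protein, also had 22 CpGs, with a score of 104. Lemd1 encodes a LEM-domain protein, Atpaf2 an assembly factor of the mitochondrial ATP synthase, Stc2 a secreted stanniocalcin and Relt a receptor of the TNF receptor family. Lemd1, Atpaf2 and Stc2 have high-CpG promoters and Relt an intermediate one. Atpaf2 had in the SssI list the highest score of all 1975 upstream peaks, 2177 (chr11:60417111-60417573), and the peaks of Lemd1, Stc2 and Relt scored 1506, 1504 and 1862.

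Every upstream TKO peak overlapped an SssI peak, 128 of 128 (97.1% to 100%). This is close to the list as a whole, in which 99.4% of autosomal TKO peaks did. The overlapping SssI peaks were wider in 127 of 128 cases and had a median score of 1235, from 38 to 2177. By rank, 110 of them (85.9%, 78.9% to 90.9%) stood in the top 10% of the SssI list, against 82.2% for other TKO peaks (3.70 points, -3.40 to 8.72). Across the 128 peaks the scores of the 2 lists had a Spearman coefficient of 0.595 and a Pearson coefficient of 0.493, given as a description, since the points are regions of 1 pair of lists that share their sequence and tract content. The weakest pair was that of Dhx16, an RNA helicase, with 37 in the TKO and 38 in the SssI list.

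**Figure D4:**
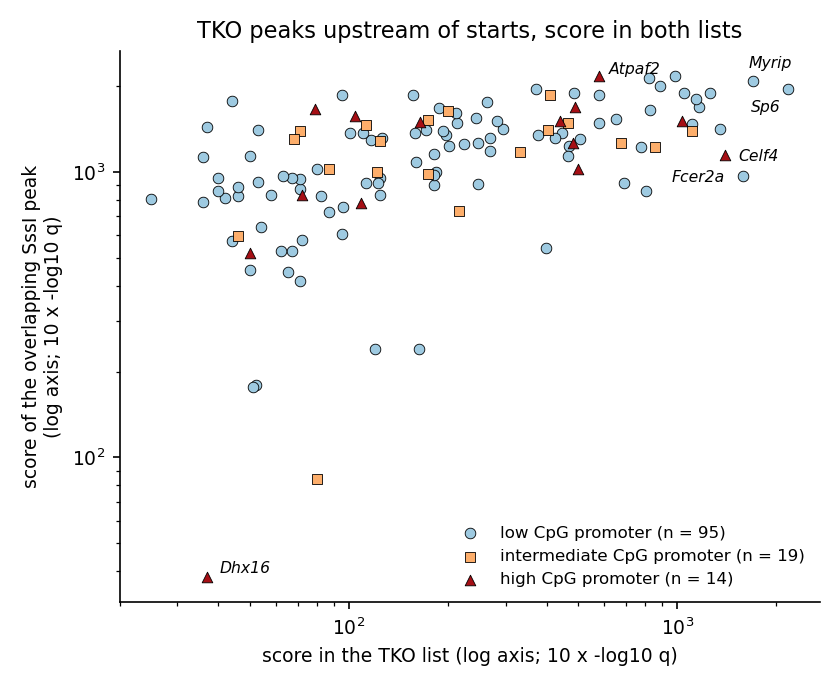
Score in the TKO list (x axis, log scale) and score of the overlapping SssI peak (y axis, log scale) for the 128 TKO peaks upstream of starts, with symbols for the promoter CpG class. SssI scores lie between 38 and 2177 with a median of 1235, and peaks of low, intermediate and high CpG promoters are found across the range.

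Far fewer upstream SssI peaks had a TKO counterpart. Of 1975, 125 overlapped a TKO peak, which is 6.33% (5.34% to 7.49%), against 8.49% of all other SssI peaks (-2.16 points, -3.16 to -0.994), while over all autosomal SssI peaks the share was 8.47%. With a window of 2000 bp the difference was -0.761 points (-1.55 to 0.108), which includes 0. The difference widened with CpG number. Without a CpG the shares were 2.42% upstream and 2.86% elsewhere (-0.447 points, -1.56 to 1.53), and with 1 or 2 CpGs 3.62% and 6.15% (-2.52 points, -3.66 to -0.917). With 3 to 5 CpGs they were 8.18% and 14.9% (-6.75 points, -9.02 to -3.74), and with 6 or more 13.7% and 28.3% (-14.7 points, -17.8 to -10.8). Where the 6 or more CpGs lay outside the longest tract the shares were 15.6% and 44.1% (-28.5 points, -32.8 to -23.1). Where they lay inside it they were 11.0% of 100 upstream peaks and 23% (-12 points, -16.9 to -4.30).

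Scores moved with this difference. Upstream SssI peaks with 6 or more CpGs had a median score of 179 and the others with as many CpGs one of 344. They also held a tract shorter than 24 bp, or none, somewhat more often: among those with 6 to 19 CpGs this was 10.0% (7.21% to 13.7%) against 6.12% (5.73% to 6.54%). Among those with 20 or more it was 20.7% (12.3% to 32.8%) of 58 upstream peaks against 11.5% (9.01% to 14.7%), with overlapping intervals. In this denser class the longest tract had a median of 45.5 against 93 bp, and 32.8% against 72.9% had a TKO peak. At 6 to 19 CpGs the median tracts were 50 and 55 bp. The difference in the share with a TKO peak was then read within bands of score, which were set after these values were seen. Below a score of 300 few peaks of either group had a TKO peak, so a large gap in points could not appear there. For peaks with 6 or more CpGs the shares with a TKO peak were 76.8% upstream and 82.9% elsewhere at scores of 1000 or more (-6.09 points, -18.7 to 3.11), 11.4% and 23.9% at 300 to under 1000 (-12.5 points, -18 to -3.54), 0.775% and 2.14% at 100 to under 300 (-1.37 points, -2.19 to 2.14) and 0 of 124 against 0.475% below 100, where 0 allows a share of up to 3.00%. Over peaks of any CpG number all 4 bands had an interval that included 0, from -3.81 points (-12.7 to 2.78) at 1000 or more to 0.0427 points (-0.108 to 0.580) below 100. Only the CpG-rich peaks scoring 300 to under 1000 kept a difference beyond its interval. It was near the -14.7 points of all peaks with 6 or more CpGs.

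**Figure D5:**
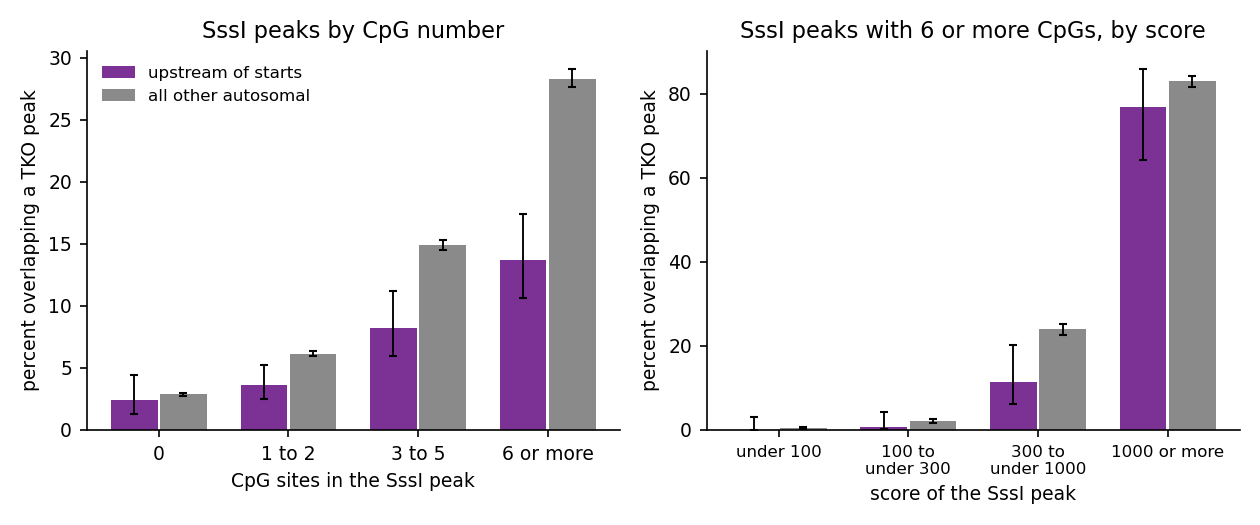
Percent of SssI peaks that overlap a TKO peak, for peaks upstream of starts and all other autosomal peaks, by number of CpG sites in the peak (left) and, for peaks with 6 or more CpGs, by score (right); bars carry 95% Wilson intervals. With 6 or more CpGs 13.7% of upstream and 28.3% of other peaks have a TKO partner, and within score bands the gap is clear of its interval only at 300 to under 1000, where 11.4% and 23.9% do.

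Among upstream SssI peaks in the top 10% of the list, 107 of 165 had a TKO peak (64.8%) against 70.0% of the others (-5.19 points, -12.8 to 1.72). By promoter class the numbers were 79 of 114 for low (69.3%, 60.3% to 77.0%), 16 of 24 for intermediate and 12 of 27 for high (44.4%, 27.6% to 62.7%), with overlapping intervals. The highest score without a TKO partner was that of Filip1, a filamin-binding protein, at 2170 (chr9:79962294-79962710, 469 bp from the start) in a peak with 2 CpGs. Next came Srcin1, an inhibitor of SRC kinase, at 1909 with 68 CpGs in its peak and a longest tract of 16 bp (chr11:97575045-97575490). Over all upstream SssI peaks the median was 2 CpGs and the highest number 68.

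Further CpG-rich SssI peaks lay right at a start. Nr4a3, an orphan nuclear receptor, had 66 CpGs in a peak 22 bp from its start, a tract of 58 bp and a score of 846. Dyrk1a, a protein kinase, had 56 CpGs at 18 bp, a score of 1023 and no tract at all (chr16:94569826-94570157). Neither had a TKO peak. Dyrk1a was 1 of 24 upstream SssI peaks without a tract of 12 bp, of which 6 held 6 or more CpGs, 6 stood in high-CpG promoters and 3 overlapped a TKO peak (Gm10803, Chn1 and Rrp1). The median score of the 24 was 78.

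The other high SssI scores were shared with the TKO list. Adora3, the adenosine A3 receptor, scored 2169 in the SssI and 983 in the TKO list, and Slc6a12, a betaine and GABA transporter, 2136 and 820. Adgrd1, an adhesion G protein-coupled receptor, scored 1999 and 888, and Mpped1, a metallophosphoesterase, 1959 and 372. All 4 have low-CpG promoters and between 1 and 5 CpGs in the peak. Of the 4 SssI peaks with their midpoints nearest to a start, 2 scored below and 2 above the median of 102 of all upstream SssI peaks: Bud23, an rRNA methyltransferase, at 5 bp with a score of 76, the olfactory receptor Olfr167 at 7 bp with 24, the muscarinic receptor Chrm1 at 8 bp with 158, and Ank3, the ankyrin of axon initial segments, at 8 bp with 126. None of these last 4 had a TKO peak, and their ranks lay between 60192 and 165297. The long tract of Arfgap3, a regulator of Golgi traffic, with 219 bp had an SssI score of 490 and no TKO peak, unlike the longer tracts of Wdhd1, Paip1 and Timp2, whose SssI peaks scored 1224, 1699 and 1224.

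By gene, 127 of 20757 autosomal protein-coding genes (0.612%) had a TKO peak upstream of at least 1 start and 1851 (8.92%) an SssI peak. Both were found at 125 genes, 98.4% of the TKO and 6.75% of the SssI genes. In the SssI list 1714 genes had 1 peak, 125 had 2, 11 had 3 and Tcf4, a basic helix-loop-helix transcription factor with many alternative promoters, had 4. The 11 genes with 3 were Ampd3, Ank3, Cbarp, Gcnt1, Grin2b, Hsd11b1, Mpped1, Mxi1, Nedd4l, Olfr1564 and Tmcc1. At Grin2b these scored 1614, 553 and 132, and only the strongest overlapped a TKO peak. At Ank3 they scored 1370, 126 and 62, again with a TKO peak under the strongest alone, and at Olfr1564 121, 69 and 54 with none. Only Olfr279 (scores 82 and 46) and Sp7 (67 and 40), a transcription factor of osteoblasts, had 2 TKO peaks, and at each of them a single wide SssI peak covered both, with scores of 826 and 957.

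Many of the starts are internal. Of the upstream TKO peaks 62 of 128 (48.4%) and of the SssI peaks 871 of 1975 (44.1%) lay inside the gene whose start they precede. Peaks at the outermost start of a gene and those at internal starts alone had a TKO partner at similar rates in the SssI list, 5.74% (4.55% to 7.23%) and 7.18% (5.59% to 9.17%). Introns held 44.5% of upstream peaks in each list, against 43.3% of other TKO peaks (1.23 points, -7.14 to 9.91) and 41.7% of other SssI peaks (2.78 points, 0.585 to 4.99). Outside protein-coding genes lay 48.4% of TKO and 50.1% of SssI peaks, against 55.4% (-6.97 points, -15.5 to 1.65) and 56.5% (-6.43 points, -8.65 to -4.22) of the rest. Annotated UTRs held 4.69% of TKO and 2.94% of SssI upstream peaks, against 0.561% and 0.794% elsewhere, and coding sequence held 1 upstream SssI peak and no TKO peak.

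Gene families were read against the 0.612% and 8.92% of all genes. Olfactory receptors, a large family with CpG-poor promoters, had an SssI peak at 119 of 1137 genes (10.5%, 8.82% to 12.4%) and a TKO peak at 11 (0.967%, 0.541% to 1.72%). Both intervals include the share over all genes. The TKO scores ran from 46 at Olfr279 to 425 at Olfr62, and the latter had no CpG in a peak with a tract of 57 bp. Vomeronasal receptors had an SssI peak at 19 of 330 genes (5.76%, 3.72% to 8.82%), an interval just under the share over all genes. SssI peaks were found at 2 of 38 taste receptors and 5 of 64 genes of the Gpr series, and none of these 3 families had a TKO peak.

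Among families whose promoters are mostly CpG-rich, ribosomal protein genes had an SssI peak at 1 of 79 (Rps14, score 39; 1.27%, 0.224% to 6.83%), below the share over all genes. Histone genes had 1 of 67 (1.49%, 0.264% to 7.98%), also below that share. It was Hist1h3e, which was in the TKO list too (scores 783 and 109). Histone genes of the same type are near-identical copies. Whether reads from the sequence upstream of them map to more than 1 place was not tested. Hox genes had SssI peaks at 4 of 39 (10.3%, 4.06% to 23.6%) and none in the TKO list. These were Hoxa13, Hoxb7, Hoxd3 and Hoxd9, with scores of 80 to 140. Zfp genes had 25 of 385 (6.49%, 4.44% to 9.41%) in the SssI and 1 (Zfp804b) in the TKO list. Of 40 Zbtb genes, the family of ZBTB43 itself, only Zbtb38 had an SssI peak (2.50%, 0.443% to 12.9%). It had a score of 39 at 37 bp, and no Zbtb gene had a TKO peak. The SssI intervals of the Hox, Zfp and Zbtb genes include the share over all genes. Without a TKO gene, the Hox and Zbtb lists allow TKO shares of up to 8.97% and 8.76%.

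Metabolic and structural families lay near or above the share over all genes. SssI peaks were found at 13 of 100 cytochromes P450 (13.0%, 7.76% to 21%), 38 of 358 solute carriers (10.6%, 7.83% to 14.2%) and 5 of 53 keratins (9.43%, 4.10% to 20.3%). TKO peaks were found at no cytochrome, at 2 solute carriers (Slc39a3 and Slc6a12) and at 1 keratin, Krt7, whose scores were 188 in the TKO and 1684 in the SssI list. All of these intervals include the share over all genes. The absence of TKO peaks at cytochromes allows a TKO share of up to 3.70%.

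Genes of the processes ZBTB43 has been studied in had SssI peaks at shares whose intervals included that of all genes: 6.67% (1.19% to 29.8%) of DNA methylation genes, 9.09% (2.53% to 27.8%) of germ cell and piRNA genes and 6.25% (1.11% to 28.3%) of Z-DNA and topology genes. Of 15 autosomal DNA methylation genes only Tet1, which oxidises methylated cytosine, had an SssI peak (score 241, 710 bp from an internal start). Of 22 germ cell and piRNA genes Prdm14, needed for the specification of primordial germ cells, had one with a score of 738 at 576 bp, and Stra8, needed for entry into meiosis, one with 169 at 895 bp. Of 16 genes of Z-DNA binding and DNA topology Msh3, a mismatch repair protein, had one with 17 at 878 bp, among the lowest scores of the list. None of these 4 genes had a TKO peak, and with 15 to 22 genes a list, 0 TKO genes allow shares of up to 14.9% to 20.4%. Of 13 genes named in the browser images of the study, Eml1, Mxi1, Pdzd2 and Tshz2 had SssI peaks upstream of a start and Tshz2 alone a TKO peak. The SssI share was 30.8% (12.7% to 57.6%), of genes whose loci the study picked for display, so it is no independent evidence. Whether these upstream peaks are the displayed sites was not checked. The SssI scores were 403 at Eml1, 54 at Pdzd2 and 287, 91 and 42 at the 3 Mxi1 peaks, of which the strongest held 20 CpGs in a high-CpG promoter.

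At the 1000 bp limit, the TKO peaks just inside were those of Unc13a at 996 bp (score 174) and, both at 987 bp, Cldn10 (score 87) and Timp2 (score 778). Just outside were those of Spg21 at 1015 bp (score 79) and Appl2 at 1018 bp (score 63). The SssI peaks of Muc5ac and Tnfaip3 lay at 1000 bp with scores of 206 and 99, and those of Pabpc2 and Proser1 at 1001 and 1002 bp with 128 and 189. Scores on the 2 sides of the limit overlapped in the SssI list, and in the TKO list the peaks named outside scored lower than those named inside.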

How the data were processed

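Affinity sequencing was run on 8 libraries (MBP-ZBTB43 and MBP alone on TKO ES and on SssI-treated lung DNA, 2 each). The 4 sperm libraries of the series were not analysed here. Following the study's methods, the authors aligned reads to mm10 with bwa mem 0.7.17 and called peaks with MACS2 2.2.7.1 at default settings, with duplicates combined and MBP as control. The submitters' processing notes also name bcl2fastq 1.9.0, deepTools 3.4.3 and SAMtools. The deposited lists hold 14694 (TKO) and 175775 (SssI) peaks, each with a score that the authors' peak caller wrote as 10 times -log10 of the q-value. Peak numbers in the names run to 15110 and 179666, so some numbers are missing from each list. The study states a minimum depth for its affinity libraries, but the lists give no read counts, so the depth behind each peak is unknown and no interval covers library error. Alignment was at default settings, and an added filter of the affinity alignments is described only for some of the study's heatmaps. How reads in repeats were placed under these settings, which bears on long tracts, is not spelled out there. A deeper library yields more peaks and higher scores, and the depths reached in the libraries of each list were not compared here.

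Peaks of the 19 autosomes were set against GENCODE M21 starts and GRCm38 sequence with python 3.11.15, numpy 2.4.6, pandas 2.3.3 and scipy 1.17.1, and figures were drawn with matplotlib 3.10.9. A shared peak is one with 1 bp or more in common with the other list. With 1 pooled list per DNA no test across replicates was possible, and shares carry Wilson and differences Newcombe 95% intervals. The tract finder, the overlap and the assignment to starts were tested on simulated data. For each list the genes named are the 8 peaks of highest score, the 4 nearest to a start, the 4 with the longest tract and the 4 with the most CpGs, every gene with a peak from 4 gene lists (DNA methylation, germ cell, Z-DNA and topology, browser images) and genes with 3 or more peaks. The genes with 2 TKO peaks, Dhx16 and the single members of gene families were picked after their values were seen. The upstream peaks and gene lists were chosen with earlier results of these data known. Alternatives changed the window, the choice of starts, the overlap, the q-value limit, the tract length, the class limits and the bin width.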

Additional observations from a re-analysis of the deposited data

How the results depend on the processing

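Of 80 alternative values, 68 were counted as unchanged. Numbers of peaks had to stay within 1.5 times and densities within the interval of the main setting. Differences had to keep their direction and their side of 0, or to have intervals that included 0 in both settings. Some of the latter changed sign. The TKO difference in the share above the median score went from -5.43 to 1.31 points with a window of 500 bp. The number of upstream peaks followed the window and the choice of starts, with 41 TKO and 879 SssI peaks within 500 bp, 321 and 4091 within 2000 bp, and 68 and 1167 at 1 start per gene. With 1 start per gene the TKO difference between the low and high promoter classes was 0.179 points. With a window of 2000 bp the SssI difference in overlap with TKO peaks was -0.761 points and that in the share above the median score -2.11 points (-3.66 to -0.561), which no longer included 0. The difference in SssI peaks over tracts turned from negative to positive when only tracts of at least 24 bp (1.76 points) or 36 bp (3.78 points) were counted, since the short tracts carry the deficit. With 4 bins in place of 5 over the window the SssI density next to the start was 39.9 per Mb. No paired analysis was possible because the duplicates were combined before the peaks of these lists were called, and for the same reason no replicate could be left out. Signal tracks of single libraries were not analysed here. What depth limits cannot be read from these lists.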
